A study of Homo sapiens with 2 samples.

Results

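RUNX1, RUNX3, CBFB, GFI1, MYB, LMO2, LYL1, ERG and GATA2 are 9 genes for transcription factors, or their partners, that act when blood cells first form. They were found by symbol among the 32738 genes counted, and their levels were read in 7550 of 10836 barcodes: those called for 1 hashtag antibody with no more than 36000 unique molecular identifiers (UMIs), 6000 genes and 18% mitochondrial UMIs. The cells came from the induced pluripotent stem cell line IPS11. CD34+ cells made from it were kept for 5 days in a medium that supports the endothelial-to-hematopoietic transition (EHT), in which blood cells bud from endothelium, on plates that were uncoated or coated with VCAM1, DLL4 or DLL4+VCAM1. DLL4 is a ligand of notch receptors, and VCAM1 is a cell adhesion protein. The nonadherent cells of 3 wells per coating were pooled and stained with 1 hashtag antibody per coating, and the 4 hashtags were then sequenced together as 1 droplet library. The labels do not say which coating carried which hashtag, so hashtags 0252, 0253, 0254 and 0255 are compared by number. Each hashtag is 1 pool of wells, so coating and pool cannot be told apart, no p-value was computed and all intervals cover counting error only.

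RUNX1 and RUNX3 bind DNA through the runt domain, and CBFB is the partner subunit that stabilizes this binding. RUNX1 is required for blood cells to leave hemogenic endothelium, and GFI1, a repressor downstream of RUNX1, helps to switch off the endothelial program there. GATA2, LMO2, LYL1 and ERG belong to the group of factors that bind together at regulatory elements of blood stem and progenitor cells, while MYB is needed for definitive hematopoiesis.

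Cells were placed in gates by marker UMIs, and the gates carry the names of those genes rather than of a cell type. The CD34/GATA2 gate held 2077 cells, the SPINK2 gate 1610, the C1Q gate (C1QA, C1QB and C1QC, complement genes of macrophages) 697, the globin gate 206, the ELANE gate (neutrophil elastase) 109 and the PF4/PPBP gate (platelet chemokines) 34. These 6 gates exclude each other, and 2635 cells fell in none. A further 84 cells with collagen UMIs formed a stromal gate, whose levels are set beside those of the blood gates. Some genes were lower in a blood gate than in the stromal gate, so the stromal level is no floor. What its UMIs of blood genes come from was not tested. Another 98 cells passed more than 1 lineage gate and were left out of them, 93 of them through PF4/PPBP and globin together. The CDH5-positive gate, 115 cells with a UMI of the VE-cadherin gene, overlaps the others. The gates held check genes that were not used to set them: CD14 had 104 CPM (UMIs of a gene per 1000000 UMIs in all) in the C1Q gate, MPO 15019 CPM in the ELANE gate, GP9 399.8 CPM in the PF4/PPBP gate and KLF1 131 CPM in the globin gate. GP9 also had 179 CPM in the globin gate. KIT was low throughout, with 8.48 CPM in the CD34/GATA2 gate and 11.4 CPM in the SPINK2 gate. Median depth was 12669 UMIs per cell in the C1Q gate and 12430 in the ELANE gate, against 18281 to 21280 in the other 4.

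All 9 genes were matched by their Ensembl identifiers to positions on hg19, the build of the deposited counts. RUNX1 (ENSG00000159216) spans 36160098 to 37376965 on chromosome 21, and ERG (ENSG00000157554) spans 39751949 to 40033704 on the same chromosome. RUNX3 (ENSG00000020633) lies on chromosome 1 at 25226002 to 25291612, and GFI1 (ENSG00000162676) on that chromosome at 92938600 to 92952482. LYL1 (ENSG00000104903) lies on chromosome 19 at 13209847 to 13213975, and GATA2 (ENSG00000179348) on chromosome 3 at 128198270 to 128212044. RUNX1 and RUNX3 each start at more than 1 promoter, and counts of whole genes do not separate the transcripts.

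Promoter sequences from the RefSeq table (build GRCh38.p14) were found for 7 of the 9 genes, in 14 windows of 250 bases before a start, but not for CBFB or LMO2. Each window was searched on both strands for GATAA, the core of a GATA factor motif, and for TGTGGT, the core of a RUNX motif. A match is a description of the letters and not evidence of binding, and no match of one motif overlapped a match of the other. GATAA was in 3 of the 14 windows and TGTGGT in 2, against 20.4% and 11.0% of all 35116 windows in the table. A window with a match is shown for RUNX3 and for LYL1. RUNX3 had among the widest differences between gates and hashtags, and LYL1 had its highest levels in the globin and PF4/PPBP gates. Capitals mark TGTGGT in RUNX3 (chr1:24965011-24965260, minus strand; 131 and 123 bases before the start) and GATAA in LYL1 (chr19:13102859-13103108, minus strand; 27 bases before the start), with distances counted to the first capital and all 3 matches on the strand opposite to the one printed.
RUNX3: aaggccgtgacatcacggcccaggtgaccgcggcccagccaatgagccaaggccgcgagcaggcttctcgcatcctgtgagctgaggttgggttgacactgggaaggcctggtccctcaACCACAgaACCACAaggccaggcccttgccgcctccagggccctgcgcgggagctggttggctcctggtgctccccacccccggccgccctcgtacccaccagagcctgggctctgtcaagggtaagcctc
LYL1: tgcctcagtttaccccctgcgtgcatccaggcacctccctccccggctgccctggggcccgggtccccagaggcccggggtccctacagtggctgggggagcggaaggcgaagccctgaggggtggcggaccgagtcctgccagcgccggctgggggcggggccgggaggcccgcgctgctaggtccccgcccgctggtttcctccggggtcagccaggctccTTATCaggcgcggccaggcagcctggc
The RUNX1 window held neither motif, nor did the other RUNX3 window or the GATA2 windows. Outside RUNX3, TGTGGT was found 47 bases before a start of GFI1. The matches in the ERG windows are 1 place that 2 overlapping windows share.

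RUNX1 was present in every gate, and over all hashtags its levels varied less between gates than those of RUNX3. UMIs were summed over the cells of a gate and divided by their total UMIs, with exact Poisson 95% intervals. RUNX1 had 132 CPM (114 to 152) in the ELANE gate, 101 CPM (78.6 to 128) in the PF4/PPBP gate, 80.2 CPM (74.6 to 86.0) in the C1Q gate, 78.4 CPM (75.7 to 81.1) in the CD34/GATA2 gate, 76.7 CPM (68.6 to 85.5) in the globin gate and 70.0 CPM (67.2 to 72.8) in the SPINK2 gate. Every neighbor in this order overlapped the next in its interval, and the highest gate was 1.87-fold above the lowest. The ELANE interval lay above all but that of the PF4/PPBP gate, and the CD34/GATA2 interval above that of the SPINK2 gate. The stromal gate had 27.3 CPM (19.0 to 38.0). Single hashtags differed in order. The C1Q gate was above the CD34/GATA2 gate in hashtag 0252 (121 against 90.04 CPM). It was below in 0254 (53.7 against 72.6 CPM) and 0255 (45.3 against 62.6 CPM), each time with no overlap of intervals, while in 0253 they overlapped.

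RUNX3 took a different order. Its level was 196 CPM (187 to 205) in the C1Q gate and 161 CPM (157 to 165) in the SPINK2 gate, followed by 51.5 CPM (49.4 to 53.7) in the CD34/GATA2 gate. It had 20.1 CPM (13.6 to 28.7) in the ELANE gate, 10.3 CPM (4.12 to 21.1) in the PF4/PPBP gate and 7.79 CPM (5.36 to 10.9) in the globin gate, and these last neighbors overlapped. The range was 22.4-fold, with its low end in the globin gate. The stromal cells had 31.2 CPM (22.3 to 42.5), above the globin and PF4/PPBP gates with no overlap and overlapping the ELANE gate. RUNX3 in these 3 gates was thus not above the stromal level. The stromal UMIs of RUNX3 were 0, 0, 9 and 31 in hashtags 0252 to 0255, so that level is no even measure of background. The 2 large progenitor gates differed in RUNX3 in each hashtag, with 123, 131, 178 and 201 CPM in the SPINK2 gate of hashtags 0252 to 0255 and 33.4, 34.3, 69.0 and 91.5 CPM in the CD34/GATA2 gate. The SPINK2 gate was higher in 4 of 4 hashtags with no overlap of intervals, whereas RUNX1 intervals of these gates overlapped in all 4.

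CBFB, the shared subunit, stayed between 10.3 and 29.5 CPM. It was highest in the C1Q gate (29.5 CPM, 26.2 to 33.1) and lowest in the PF4/PPBP gate, where 7 UMIs gave 10.3 CPM (4.12 to 21.1). The stromal gate had 19.5 CPM (12.6 to 28.8), so its level in stromal cells, which also use this broadly expressed gene, lay within the range of the blood gates.

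**Figure D1:**
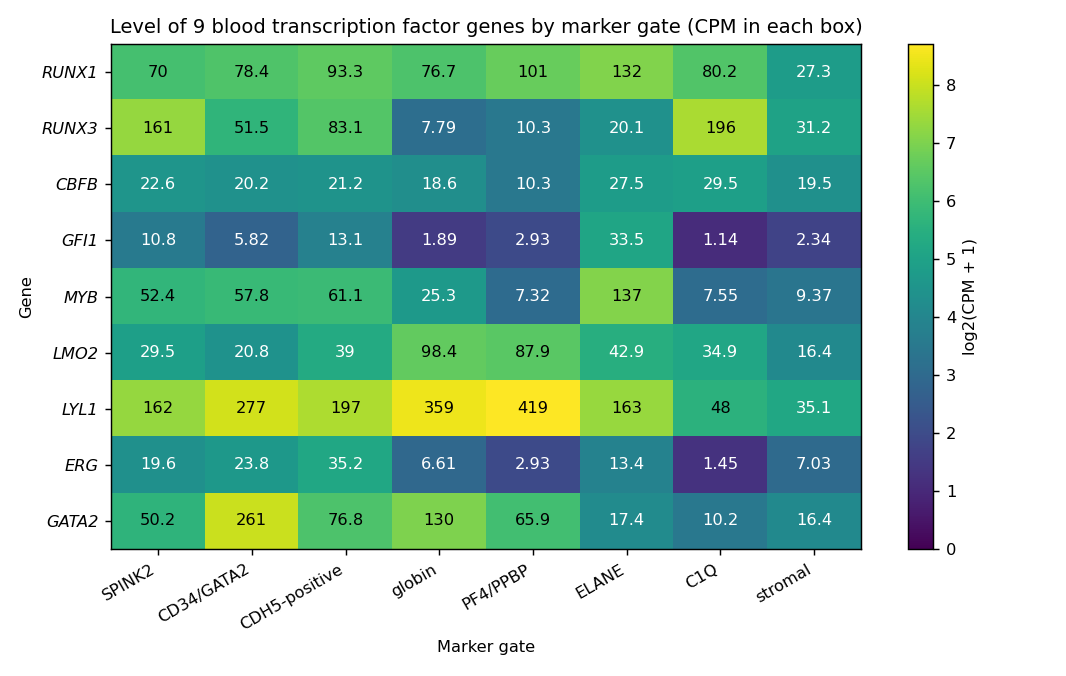
Level of each gene (vertical) in each marker gate (horizontal), as CPM from summed UMIs in the boxes and as log2(CPM + 1) by color. RUNX1 stays between 70.0 and 132 CPM in the 6 exclusive blood gates, whereas RUNX3 runs from 7.79 to 196 CPM, and the GATA2 level in the CD34/GATA2 gate is set by the gate.

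LMO2 and LYL1 were highest in the globin and PF4/PPBP gates. LMO2 is a bridging protein that joins GATA factors to helix-loop-helix factors, and LYL1 is one of the latter. LMO2 had 98.4 CPM (89.2 to 108) in the globin gate and 87.9 CPM (67.0 to 113) in the PF4/PPBP gate, which overlapped. It had 42.9 CPM (33.0 to 54.7) in the ELANE gate, 34.9 CPM (31.2 to 38.8) in the C1Q gate, 29.5 CPM (27.7 to 31.4) in the SPINK2 gate and 20.8 CPM (19.5 to 22.3) in the CD34/GATA2 gate, a range of 4.55-fold. The stromal gate had 16.4 CPM (10.1 to 25.1) of LMO2, so its level in the CD34/GATA2 gate, the low end of that range, is not separated from the stromal level. LYL1 had 419 CPM (372 to 470) in the PF4/PPBP gate, 359 CPM (342 to 378) in the globin gate and 277 CPM (272 to 282) in the CD34/GATA2 gate. These high levels of LYL1 were followed by 163 CPM (144 to 185) in the ELANE gate and 162 CPM (158 to 167) in the SPINK2 gate, which overlapped. In the C1Q gate LYL1 had 48.0 CPM (43.7 to 52.6), beside 35.1 CPM (25.6 to 47.0) in stromal cells. The 2 genes differed in the progenitor gates, since LYL1 was lower in the SPINK2 gate than in the CD34/GATA2 gate in 4 of 4 hashtags, while LMO2 was higher there in 3 of 4 with no overlap of intervals.

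GATA2, a zinc finger factor of progenitors, helped to set the CD34/GATA2 gate, so its 261 CPM there is no result. In the 2733 cells gated on CD34 alone it had 201 CPM (197 to 205). Among gates that did not use it, the globin gate had 130.3 CPM (119.6 to 142), the PF4/PPBP gate 65.9 CPM (48.1 to 88.2) and the SPINK2 gate 50.2 CPM (47.9 to 52.6). The ELANE gate had 17.4 CPM (11.4 to 25.5) and the C1Q gate 10.2 CPM (8.33 to 12.5). Both overlapped the stromal gate (16.4 CPM, 10.1 to 25.1) and were not separated from its level. The stromal UMIs of GATA2 were 0, 1, 1 and 19 in hashtags 0252 to 0255, so that level is no even measure of background. Without its own gate the range of GATA2 was still 11.7-fold.

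ERG, an ETS-family factor shared by endothelium and blood stem cells, was low but ordered. It had 23.8 CPM (22.3 to 25.3) in the CD34/GATA2 gate, 19.6 CPM (18.2 to 21.1) in the SPINK2 gate and 13.4 CPM (8.18 to 20.7) in the ELANE gate. Lower levels followed, with 6.61 CPM (4.39 to 9.55) in the globin gate, 2.93 CPM (0.355 to 10.6; 2 UMIs) in the PF4/PPBP gate and 1.45 CPM (0.792 to 2.43; 14 UMIs) in the C1Q gate. The last 3 were at or below the stromal level of 7.03 CPM (3.21 to 13.3).

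MYB and GFI1 were both highest in the ELANE gate. MYB had 137 CPM (119 to 157) there, 57.8 CPM (55.5 to 60.1) in the CD34/GATA2 gate and 52.4 CPM (50.05 to 54.9) in the SPINK2 gate. It had 25.3 CPM (20.7 to 30.5) in the globin gate, while 7.55 CPM (5.92 to 9.50) in the C1Q gate and 7.32 CPM (2.38 to 17.1) in the PF4/PPBP gate were no higher than the stromal 9.37 CPM (4.84 to 16.4). GFI1 had 33.5 CPM (24.9 to 44.2) in the ELANE gate, 10.8 CPM (9.71 to 11.9) in the SPINK2 gate and 5.82 CPM (5.11 to 6.59) in the CD34/GATA2 gate. Its SPINK2 level was above its CD34/GATA2 level with no overlap of intervals in 3 of 4 hashtags. The globin gate had 8 UMIs of GFI1 and the C1Q gate 11, or 1.89 and 1.14 CPM, beside 2.34 CPM from 3 UMIs in stromal cells.

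Counted over the 6 gates, 7 of 9 genes had a 4-fold or wider range, and RUNX1 and CBFB did not. Of the 8 genes at 10 CPM or more over all cells, which leaves out GFI1, 6 had such a range, against 15.4% of all 7832 genes at that level. A gate was then set against all other cells on the log2(CPM + 1) scale, with 2-fold as the limit. GFI1 is named in these comparisons too, although it is not among the 7832 genes of the background shares. In the C1Q gate none of the 9 genes was 2-fold higher (5.31% of the 7832 genes were) and 5 were lower (7.65% were): GATA2 (-3.54), ERG (-2.81), MYB (-2.55), GFI1 (-2.18) and LYL1 (-2.03). RUNX1, RUNX3, CBFB and LMO2 lay within 2-fold of the other cells there. In the ELANE gate GFI1 (1.95) and MYB (1.57) were higher, against a background of 4.44%, and GATA2 (-2.75) and RUNX3 (-2.40) were lower, against 7.14%.

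In the PF4/PPBP gate LMO2 (1.47) and LYL1 (1.15) were higher, against 4.72% of all genes. There 5 members were lower, RUNX3 (-3.30), MYB (-2.52), ERG (-2.05), GFI1 (-1.23) and CBFB (-1.10), against a background of 14.1%. With 34 cells these rest on 2 to 7 UMIs each, and the intervals of GFI1 reach past its level of 8.19 CPM in the other cells. The CBFB value was -0.97 without hashtag 0252 and -0.83 without hashtag 0253, so it does not pass 2-fold in either case. In the globin gate LMO2 (1.72) was higher, against 2.55%, and RUNX3 (-3.69), GFI1 (-1.70) and ERG (-1.11) were lower, against 6.18%. The SPINK2 gate had 0 members higher, against 0.255%, and GATA2 (-1.52) lower, against 2.91%. This gate was filled before the CD34/GATA2 gate, so cells with both SPINK2 and GATA2 could still enter it. Apart from GATA2 itself, the CD34/GATA2 gate had 0 members higher, against 1.17%, and RUNX3 (-1.36) lower, against 3.51%. With the mitochondrial limit at 10%, which kept 736 cells, 4 of these values fell short of 2-fold: LMO2 in the globin gate (0.82), RUNX3 in the CD34/GATA2 gate (-0.81), GATA2 in the SPINK2 gate (-0.74) and CBFB in the PF4/PPBP gate (-0.70).

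Over all cells of a hashtag, RUNX1 and RUNX3 went in opposite directions. RUNX1 had 99.1 CPM (96.0 to 102) in hashtag 0252, 84.0 CPM (81.1 to 86.9) in 0253, 59.9 CPM (57.4 to 62.5) in 0254 and 53.0 CPM (50.3 to 55.7) in 0255, with no overlap between any of the 4. RUNX3 had 68.8 CPM (66.2 to 71.4) and 70.7 CPM (68.1 to 73.4) in hashtags 0252 and 0253, which overlapped, against 142 CPM (138 to 146) in 0254 and 178 CPM (173 to 183) in 0255. LMO2 followed the direction of RUNX1, with 36.4, 40.8, 23.6 and 20.6 CPM in hashtags 0252 to 0255. The highest hashtag was 1.85-fold above the lowest for RUNX1, 2.57-fold for RUNX3 and 1.94-fold for LMO2. No other member had a 1.5-fold or wider range, so 3 of the 8 members at 10 CPM or more did, against 4.99% of all genes at that level.

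The other 6 members had a range under 1.5-fold in these sums over all cells. CBFB (22.6 to 24.1 CPM) and MYB (45.2 to 47.3 CPM) had overlapping intervals over the hashtags, and GFI1 lay between 7.19 and 9.07 CPM. LYL1 had 204, 195, 188 and 160 CPM in hashtags 0252 to 0255. ERG had 13.3 and 12.2 CPM in hashtags 0252 and 0253 against 18.4 and 18.02 CPM in 0254 and 0255, a range of 1.47-fold. GATA2 was highest in hashtag 0254 (148 CPM), with 111, 112 and 120.0 CPM in 0252, 0253 and 0255. Sums over all cells hid larger differences inside some sets of cells. In ungated cells GATA2 had 44.1, 37.4, 144 and 131 CPM in hashtags 0252 to 0255, a range of 3.77-fold that was wider than that of RUNX1 (2.82-fold) or RUNX3 (3.09-fold) there. Cells with UMIs of both CD34 and GATA2 are not in this set. Its GATA2 UMIs thus come from cells without a CD34 UMI, and this range is in part set by the gates. MYB had 49.2, 57.4, 62.3 and 68.7 CPM in the CD34/GATA2 gate, but 49.9, 40.5, 36.4 and 36.9 CPM in ungated cells, so its order turned between these sets. In the ELANE gate it had 166, 126, 73.6 and 84.1 CPM. The last values rest on 10 UMIs (35.3 to 135) and 11 UMIs (42.0 to 151), and both intervals overlap that of hashtag 0253 (97.6 to 161).

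**Figure D2:**
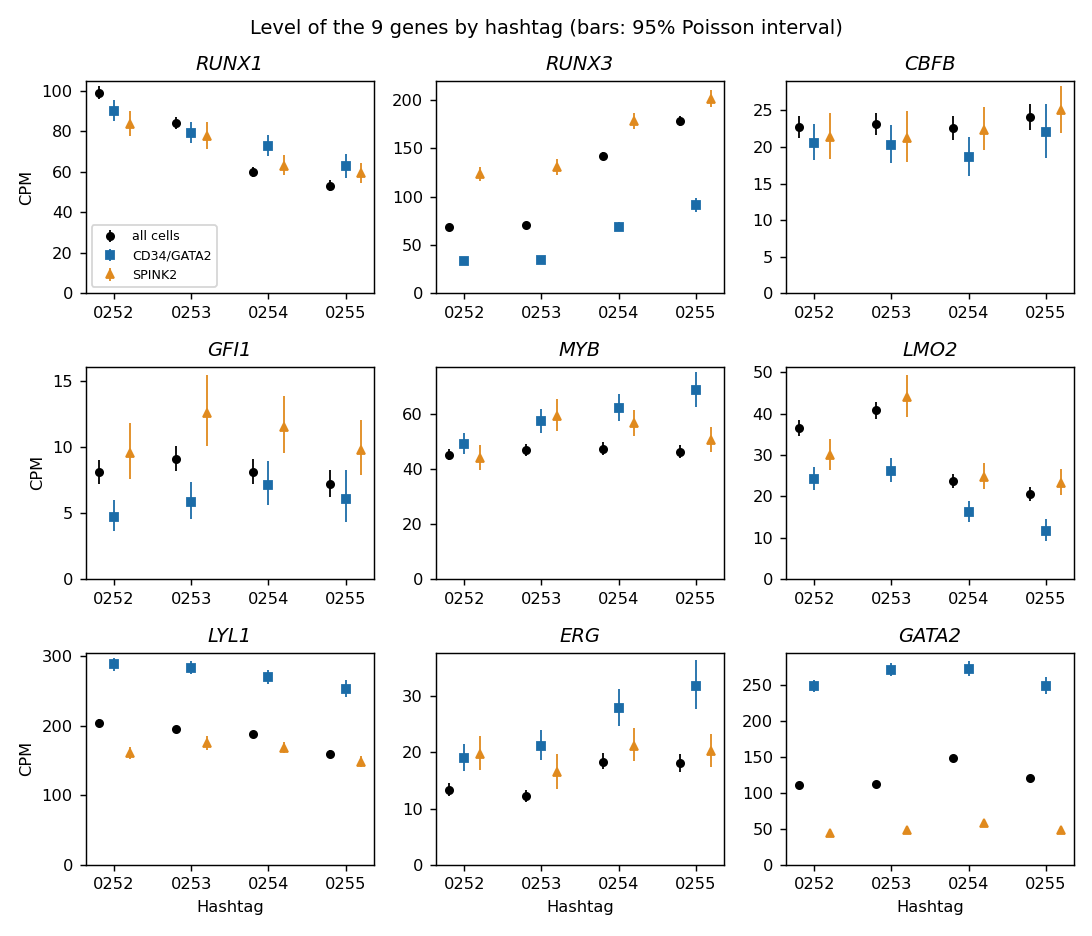
Level in CPM (vertical, from 0) of each gene by hashtag (horizontal), over all cells (black circles), the CD34/GATA2 gate (blue squares) and the SPINK2 gate (orange triangles), with bars for the 95% Poisson interval. RUNX1 and LMO2 are lower, and RUNX3 higher, in hashtags 0254 and 0255 than in 0252 and 0253 in all 3 sets of cells.

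The makeup of the hashtags also differed. The ELANE gate held 54 and 40 cells in hashtags 0252 and 0253 against 8 and 7 in 0254 and 0255, and MPO had 1676, 1632, 513 and 456 CPM in that order. Hashtag 0255 held 52 of the 84 stromal cells. Ungated cells held neutrophil genes too, with 2220 CPM of MPO and 2092 CPM of PRTN3, against 570 and 272 CPM in the SPINK2 gate. How the makeup of the ungated set differs by hashtag was not tested, nor was the part of makeup in the sums over all cells. RUNX1 and LMO2 were lower, and RUNX3 higher, in both hashtags 0254 and 0255 than in either of the others within the CD34/GATA2, SPINK2, C1Q and ungated sets. Some intervals overlapped: RUNX1 of 0253 and 0254 in the CD34/GATA2 gate, and LMO2 of 0252 with 0254 and 0255 in the SPINK2 gate. The CDH5-positive gate (25 to 36 cells per hashtag) had 103, 86.2, 91.3 and 88.7 CPM of RUNX1 and 86.8, 68.9, 110 and 60.5 CPM of RUNX3. Neither gene kept the order there, LMO2 did (38.0, 59.4, 24.9 and 36.3 CPM), and all these intervals overlapped. In the globin gate LMO2 had 86.3, 98.6, 109 and 103.5 CPM in hashtags 0252 to 0255, so that hashtags 0254 and 0255 were not lower there, with intervals that overlapped. In the CD34/GATA2 gate RUNX1 had 90.04, 79.1, 72.6 and 62.6 CPM in hashtags 0252 to 0255, and RUNX3 33.4, 34.3, 69.0 and 91.5 CPM. RUNX3 (2.69-fold), LMO2 (2.15-fold) and ERG (1.64-fold) passed 1.5-fold there, 3 of the 8 members at 10 CPM or more in that gate, against 4.4% of genes. The RUNX1 range was 1.43-fold. ERG in this gate had 19.0, 21.2, 27.8 and 31.9 CPM, and LMO2 had 24.2, 26.2, 16.2 and 11.7 CPM. The LMO2 intervals of hashtags 0252 (21.6 to 27.0) and 0253 (23.4 to 29.3) did not overlap those of 0254 (13.9 to 18.9) and 0255 (9.22 to 14.6). All 4 values lie at or near its stromal level, and how much of them is background was not tested.

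In the SPINK2 gate 2 of 9 members passed 1.5-fold, LMO2 (1.86-fold) and RUNX3 (1.63-fold), against 3.62% of genes. RUNX1 had 83.7, 77.7, 63.0 and 59.1 CPM there, a range of 1.41-fold. In the C1Q gate 4 of the 6 members at 10 CPM or more passed it, but so did 27.5% of all genes in these 697 cells. RUNX1 had 121, 84.6, 53.7 and 45.3 CPM in the C1Q gate and RUNX3 118, 144, 273 and 289.9 CPM. GATA2 and LMO2 were the others. Over the C1Q gate as a whole GATA2 was not separated from its stromal level, which rests mostly on hashtag 0255. In the C1Q gate GATA2 had 22.1 CPM (16.7 to 28.7) in hashtag 0254 and 5.30 to 6.92 CPM in the rest, with no overlap of intervals. How much of this is background was not tested. The RUNX differences were widest in the ungated cells among these 4 sets, with 113, 90.6, 44.0 and 39.5 CPM of RUNX1 and 72.7, 70.6, 174 and 220.3 CPM of RUNX3. GATA2, which helped to set which cells are ungated, differed more there. No share over all genes was computed for the ungated cells. In the ELANE gate the RUNX1 intervals of the 4 hashtags all overlapped (141, 115, 162 and 122 CPM).

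For single cells, each cell was thinned at random to 9000 UMIs so that depth did not decide which genes were seen, and 353 shallower cells were left out. A UMI of LYL1 was then seen in 68.8% of the 7197 cells, of RUNX1 in 44.7%, of RUNX3 in 44.5%, of GATA2 in 39.8%, of MYB in 28.3%, of LMO2 in 21.0%, of CBFB in 18.01%, of ERG in 11.0% and of GFI1 in 6.47%. Without thinning the shares were higher, up to 81.6% for LYL1 and 64.5% for RUNX1. In the 61 stromal cells deep enough the thinned shares were 21.3% for LYL1, 19.7% for RUNX1, 18.03% for CBFB, 16.4% for LMO2, 9.84% for RUNX3 and for GATA2, and 1.64% to 4.92% for ERG, GFI1 and MYB. Median depth before thinning was 18318.5 UMIs over all cells and 14598.5 in stromal cells. The CBFB share over all cells lies inside the stromal interval (9.36 to 30.0), and since the gene is broadly expressed its stromal share is no measure of free RNA.

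Shares by gate were in part ordered like the levels. LYL1 was seen in 89.5% (88.1 to 90.8, exact Clopper-Pearson 95% interval) of CD34/GATA2 cells and in 30.1% (26.5 to 34.0) of C1Q cells. RUNX3 was seen in 62.9% (60.5 to 65.3) of SPINK2 cells and 61.6% (57.5 to 65.5) of C1Q cells, although its level was higher in the C1Q gate, and in 29.2% (27.2 to 31.2) of CD34/GATA2 cells and 5.91% (3.09 to 10.1) of globin cells. RUNX1 was seen in 70.1% (59.4 to 79.5) of ELANE cells and in 42.9% to 46.3% of cells in the globin, SPINK2, CD34/GATA2 and C1Q gates. MYB reached 64.4% (53.4 to 74.4) of ELANE cells.

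The median cell had UMIs of 3 of the 9 genes. The mean was 3.38 in the CD34/GATA2 gate, which asks for a GATA2 UMI before thinning, 3.15 in the ELANE gate, 2.91 in the SPINK2 gate and 2.00 in the C1Q gate, against 1.05 in stromal cells. At least 5 of the 9 were seen in 21.8% (13.7 to 32.0) of ELANE cells, 16.0% (14.4 to 17.7) of CD34/GATA2 cells, 11.4% (9.88 to 13.1) of SPINK2 cells and 1.83% (0.917 to 3.25) of C1Q cells.

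The opposite directions of RUNX1 and RUNX3 over the hashtags were also seen in shares of cells. In the CD34/GATA2 gate of hashtag 0252, 40.9% of cells had RUNX1 alone of the pair, 10.9% had RUNX3 alone and 10.3% had both. In hashtag 0255 these shares were 24.3%, 27.9% and 15.6%. In the SPINK2 gate RUNX1 alone was seen in 27.2% of cells of hashtag 0252 and 14.9% of 0255, and RUNX3 alone in 29.3% and 49.1%, while the share with both was 24.4% and 23.2%. In ungated cells 37.8% had RUNX1 alone and 19.8% RUNX3 alone in hashtag 0252, against 12.4% and 50.9% in 0255.

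**Figure D3:**
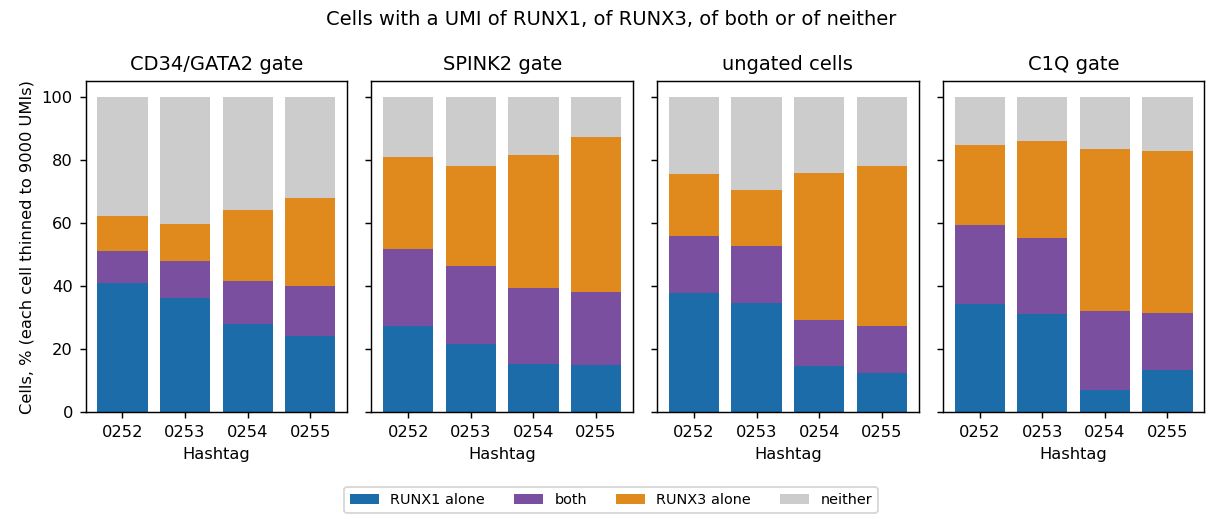
Percent of cells (vertical, each cell thinned to 9000 UMIs) with a UMI of RUNX1 alone (blue), both (purple), RUNX3 alone (orange) or neither (gray), by hashtag (horizontal) in 4 sets of cells. The blue part is larger in hashtags 0252 and 0253 and the orange part in 0254 and 0255, as in the C1Q gate, where RUNX3 alone is 25.4% in 0252 and 51.4% in 0255.

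Co-detection was measured as the number of cells with UMIs of both genes of a pair over the number that the product of the 2 shares would give. Within each gate and hashtag the RUNX1 and RUNX3 ratio lay between 0.794 and 1.04 in these 4 sets of cells, so cells with both were seen about as often as the shares give, or slightly less. Over all cells it was 0.848 (0.805 to 0.893). Of the 36 pairs, 7 had a ratio of 1.2 or more over all cells and 4 had 1/1.2 or less. The highest were GFI1 with MYB (1.57, 1.37 to 1.80), ERG with GATA2 (1.56, 1.43 to 1.70), MYB with ERG (1.47, 1.32 to 1.64) and GFI1 with ERG (1.40, 1.10 to 1.76). MYB with GATA2 (1.28), LYL1 with GATA2 (1.25) and LYL1 with ERG (1.23) were the others. How often pairs of other genes with like shares pass 1.2 or 1/1.2, over all cells or inside a gate, was not tested. The counts of pairs here and below therefore do not set these genes apart from other genes.

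LMO2 was on the low side, with ratios of 0.732 (0.667 to 0.802) with GATA2, 0.761 (0.636 to 0.904) with ERG and 0.768 (0.705 to 0.834) with RUNX3. RUNX3 with GATA2 had 0.793 (0.749 to 0.840). Over all cells such ratios include the differences between gates, and pooled hashtags include the differences between hashtags. With the product of the shares taken within each hashtag and then summed, 7 of 36 pairs still reached 1.2 over all cells, 7 in the SPINK2 gate and 2 in the CD34/GATA2 gate. RUNX3 with LMO2 had 0.827 then, LMO2 with ERG 0.805 and ERG with GATA2 1.54. Inside the SPINK2 gate, 8 of 36 pairs reached 1.2, with ERG and GATA2 (1.54, 1.24 to 1.88) and MYB and GATA2 (1.41, 1.22 to 1.62) at the top. RUNX1 with LMO2 had 1.23 (1.06 to 1.41) there. Inside the CD34/GATA2 gate, where pairs with GATA2 were not counted, 3 of 28 pairs reached 1.2. ERG and RUNX3 had 1.30 (1.10 to 1.52), while RUNX3 and LMO2 had 0.625 (0.473 to 0.808). All these genes differed between hashtags in this gate, and taken within hashtags the ratios were nearer to 1, at 1.23 (1.04 to 1.44) and 0.683 (0.518 to 0.884). RUNX3 with GFI1 (1.21, or 1.16 within hashtags) and CBFB with GFI1 (1.43) had intervals that reached below 1. In the C1Q gate 0 of 16 pairs with at least 10 cells by the product reached 1.2, in the ELANE gate 2 of 12, in the globin gate 1 of 15 and in the PF4/PPBP gate 0 of 3. A ratio cannot pass 1 over the larger of the 2 shares. LYL1 was seen in 97.0% of PF4/PPBP, 91.6% of globin and 89.5% of CD34/GATA2 cells, so its pairs could not reach 1.2 there. All 3 PF4/PPBP pairs hold LYL1, so that count says nothing about co-detection.

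**Figure D4:**
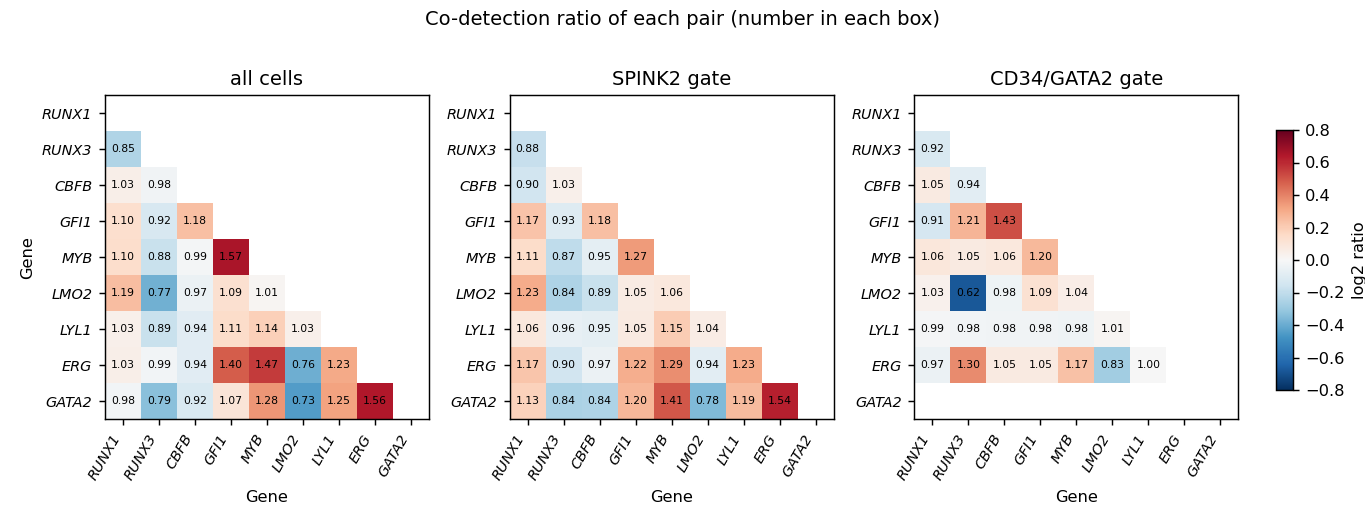
Co-detection ratio of each pair of genes (both axes) over all cells, in the SPINK2 gate and in the CD34/GATA2 gate, as numbers and as log2 by color (red above 1, blue below 1). Pairs of GFI1, MYB, ERG and GATA2 lie above 1 over all cells, as does LYL1 with ERG and with GATA2, and LMO2 with GATA2 has 0.732, while pairs with GATA2 are blank in the CD34/GATA2 gate because the gate uses it.

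CDH5 marks endothelium, from which these cells arise. Of the 115 CDH5-positive cells, 102 had a single CDH5 UMI, 48 lay in the SPINK2 gate and 29 in the CD34/GATA2 gate. The highest count in a cell was 27 CDH5 UMIs. Against all other cells ERG was 2-fold higher in the CDH5-positive cells (log2 of 1.19). It was 1 of the 8 members at 10 CPM or more over all cells, against 0.613% of all genes at that level. Lower members numbered 0, against 0.715%. Compared within the SPINK2 and CD34/GATA2 gates, where 77 CDH5-positive cells stood against 3610 others of like depth (median of 21134 and 20284 UMIs), ERG had 43.0 CPM (33.7 to 54.1) against 21.4 CPM (20.4 to 22.5), a ratio of 2.01. GFI1 had 14.1 CPM (9.06 to 21.0) against 7.91 CPM (7.29 to 8.57), and LMO2 36.5 CPM (28.0 to 46.8) against 24.5 CPM (23.4 to 25.6). GATA2 was lower, with 97.2 CPM (82.9 to 113) against 167 CPM (164 to 170.3). More of the CDH5-positive cells came from the SPINK2 gate, which has less GATA2 and more GFI1 and LMO2 than the CD34/GATA2 gate, and the part of this was not tested. RUNX1 had 89.5 CPM (75.9 to 105.0) against 74.3 CPM (72.3 to 76.2). Its intervals overlapped, as did those of RUNX3, CBFB and LYL1. MYB had 69.5 CPM (57.5 to 83.2) against 55.0 CPM (53.4 to 56.7). Endothelial genes were higher in the summed UMIs of the CDH5-positive cells, KDR with 45.9 against 0.529 CPM and CLDN5 with 29.5 against 0.489 CPM. TEK (8.25 against 1.12 CPM) and ESAM (49.5 against 26.9 CPM) differed less. SOX17, a factor of arterial and hemogenic endothelium, had 9.42 CPM from 16 UMIs against 0.0925 CPM from 7 UMIs. How many of the 77 cells hold the UMIs of these genes was not tested.

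**Figure D5:**
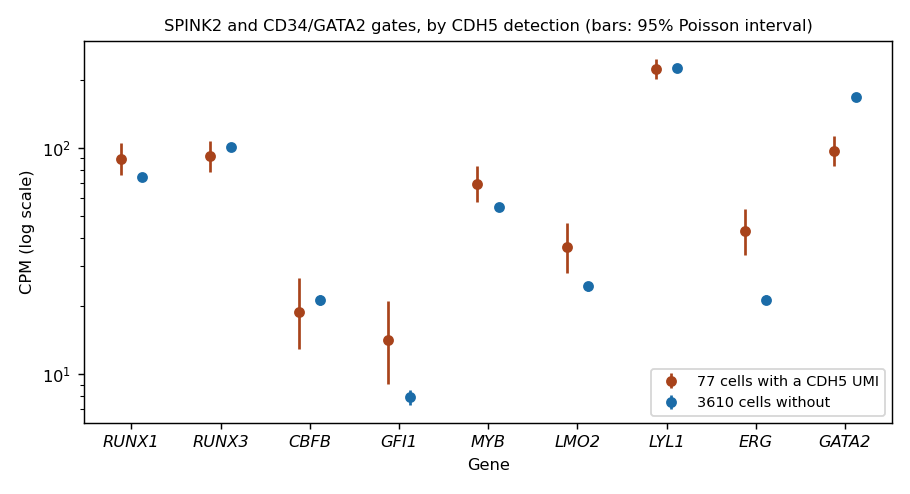
Level in CPM (vertical, log scale) of each gene (horizontal) in cells of the SPINK2 and CD34/GATA2 gates with a CDH5 UMI (brown, 77 cells) and without one (blue, 3610 cells), with bars for the 95% Poisson interval. ERG has 43.0 against 21.4 CPM and GATA2 97.2 against 167 CPM, while LYL1 is level.

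Other factors of the same network were followed as a list of 19 genes, of which 18 had a single entry in the counts and 15 reached 10 CPM. A 4-fold or wider range over the gates was found in 9 of these 15, against 15.4% of all genes at 10 CPM or more: in 4 of 8 stem and complex factors, 4 of 5 lineage factors and 1 of 2 factors of hemogenic endothelium. TAL1, the relative of LYL1, had 182 CPM in the PF4/PPBP gate, 118 CPM in the globin gate, 61.7 CPM in the CD34/GATA2 gate and 11.4 CPM in the ELANE gate. FLI1, an ETS factor like ERG, had 113 CPM in the PF4/PPBP gate and 17.2 CPM in the SPINK2 gate, so its order was unlike that of ERG. GATA1, the later GATA factor of red cells and megakaryocytes, had 296 CPM in the PF4/PPBP gate, 286 CPM in the globin gate, 121 CPM in the CD34/GATA2 gate and 3.83 CPM in the C1Q gate. GFI1B, the relative of GFI1, had 130.3 CPM (105 to 160) in the PF4/PPBP gate. It had 0.67 CPM (0.017 to 3.73) in the ELANE gate, where GFI1 was highest. RUNX2, the other runt gene, had 231 UMIs in all, or 1.63 CPM. Over the hashtags 6 of the 15 had a 1.5-fold or wider range, against 4.99% of all genes at that level. They were CEBPA, a myeloid factor (2.45-fold), FLI1 (1.98-fold), GATA1 (1.95-fold), KLF1, a red cell factor (1.68-fold), GFI1B (1.66-fold) and TAL1 (1.57-fold). These ranges are of sums over all cells, and the part of the makeup of the hashtags in them was not tested.

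Likeness between genes was described by Pearson's r of log2(CPM + 1) over 24 sums (6 gates by 4 hashtags) of this 1 library, some of which hold few cells. Among members, MYB and ERG (0.88), GFI1 and MYB (0.84) and LYL1 and GATA2 (0.76) were most alike, and RUNX3 and LYL1 (-0.74) least. The PF4/PPBP sums of hashtags 0254 and 0255 hold 2 cells each, with 0 UMIs of MYB, ERG and GFI1 in both. The part of these shared zeros in r was not tested. The sums include the CD34/GATA2 gate, which asks for a GATA2 UMI, so values of r with GATA2 are in part set by the gate. RUNX1 with RUNX3 had -0.13. The marker genes of the gates were left out of the search for like genes outside the members. Of the remaining genes at 10 CPM or more, RUNX1 was most like CDC42EP3 (0.92), and RUNX3 like FAM26F (0.94), RPL39L (0.92) and ACY3 (0.92). GFI1 was most like RGL4 (0.95), LPPR3 (0.95) and CTSG (0.92), and LMO2 like BLVRB (0.78) and STOM (0.77).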

How the data were processed

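The authors aligned reads of 1 droplet gene expression library and its hashtag library with Cell Ranger 6.0.1 to hg19 and deposited raw counts of UMIs per gene and barcode, with a call of 1 hashtag, doublet or negative per barcode. Of 10836 barcodes, 8488 were called for 1 hashtag, 1339 were called doublets and 1009 negative. The calls were used as deposited, the limits of the study on UMIs, genes and mitochondrial share left 7550 cells, and no further doublet caller was run. Together these limits removed 938 of the 8488 cells. The methods of the study give a smaller count right after the mitochondrial limit. That count may cover this limit alone, and the difference was not resolved. The 7550 cells kept hold 142110950 UMIs, with 28522216 to 40416478 per hashtag.

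Gate minimums were 5 UMIs per 10000 of the cell for C1Q, 3 for ELANE and for PF4/PPBP and 10 for globin and for collagen (COL1A1 and COL3A1), then 2 UMIs of SPINK2, then 1 of CD34 and 1 of GATA2. Fold changes used a pseudocount of 1 CPM, background shares the genes with at least 10 CPM. With 1 library there are no replicates and no test. Genes were counted by gene, and antibody UMIs were not part of totals. The genes named are the 9 members, a network list, the check genes and the 3 genes most like each member, and all of them were chosen with earlier results of these data known. The alternatives were other limits on cells, other gate minimums, overlapping gates, equal weights for cells, totals without mitochondrial genes, other thinning depths and leaving out a hashtag. Steps were tested on simulated data. Python 3.11.15, numpy 2.4.6, scipy 1.17.1, pandas 2.3.3 and matplotlib 3.10.9 were used.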

Additional observations from a re-analysis of the deposited data

Results flagged for a closer look

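Barcodes called negative for hashtags take no part in the comparisons, yet 809 of them met the same limits and held UMIs of all 9 genes, well above the 0.235 CPM that 3 counts would give. GATA2 had 279.7 CPM there against 122 CPM in called cells, LYL1 260.0 against 189 CPM, ERG 29.2 against 15.2 CPM and MYB 78.1 against 46.4 CPM. RUNX1 had 81.3 against 76.2 CPM, CBFB 21.5 against 23.1 CPM and GFI1 8.07 against 8.17 CPM. RUNX3 had 72.8 against 109 CPM and LMO2 17.7 against 31.3 CPM. The CD34/GATA2 gate took 57.5% (54.0 to 60.9) of these barcodes against 27.5% of called cells, and the C1Q gate 1.36% against 9.23%. Inside the CD34/GATA2 gate the negative barcodes had more MYB (70.3 CPM, 64.6 to 76.4, against 57.8 CPM) and ERG (29.2 CPM, 25.6 to 33.2, against 23.8 CPM) and less LMO2 (13.8 CPM, 11.4 to 16.6, against 20.8 CPM), while RUNX1 (83.3 CPM, 77.1 to 89.8) and LYL1 (284 CPM, 272 to 296) overlapped the called cells. The hashtag these barcodes belong to is not given.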

How the results depend on the processing

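Over all alternatives for the gates, 22 gate differences of 2-fold or more kept their direction. With a limit of 10% on the mitochondrial share, which left 736 cells, 4 of them fell under 2-fold (CBFB in the PF4/PPBP gate, LMO2 in the globin gate, GATA2 in the SPINK2 gate and RUNX3 in the CD34/GATA2 gate), and with doubled gate minimums CBFB did. Leaving out 1 hashtag at a time gave 7 members with a 4-fold range each time and 21 to 24 gate differences. The number of members with a 1.5-fold range over the hashtags, 3 over all cells, was 7 under the 10% limit and 7 in the C1Q gate, where members under 10 CPM are counted too. With gate minimums halved it was 7 in the C1Q gate and 5 in the CD34/GATA2 gate. With them doubled it was 8 in the C1Q gate and 1 in the SPINK2 gate. These settings were added after seeing the data. In the C1Q gate as first set, 27.5% of genes at 10 CPM or more passed 1.5-fold. Shares over all genes were not computed for the 10% limit, the changed minimums or the left-out hashtags. Those counts therefore do not set the members apart from other genes. Pairs at 1.2 or more numbered 11 at 5000 UMIs and 7 with shares multiplied within each hashtag, also added, and gate minimums cannot change a count over all cells. Shares of cells with a UMI follow depth: at 5000 UMIs and without thinning they were 29.5% and 64.5% for RUNX1, 32.6% and 60.1% for RUNX3, 10.9% and 33.4% for CBFB, 3.93% and 12.5% for GFI1, 18.6% and 43.9% for MYB, 13.4% and 34.9% for LMO2, 52.3% and 81.6% for LYL1, 6.32% and 20.2% for ERG and 30.2% and 48.8% for GATA2. No paired analysis was possible because there is 1 gene expression library. Precision is limited by 34 PF4/PPBP cells, 61 stromal cells deep enough to thin and low counts of GFI1 and ERG.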
